A study of Arabidopsis thaliana with 12 samples.

Results

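The last 3 h of a gibberellin time course in Arabidopsis thaliana seeds are described here: 9 h of treatment with the hormone against 6 h. The 2 arrays at 9 h (A and B) were set against the 2 at 6 h, A against A and B against B, on the log2 scale of the deposited signal. The same 3 h in water, 9 h against 6 h, were measured in the same way as the control for time alone. The steps were described over 13513 probe sets, each naming a single gene, of the 22746 besides the array's controls. Among the 13513, 8854 passed a filter on dim signals and were tested, and they stand for 8753 genes. The filter asked for a signal above 16 on at least 2 of all 12 arrays.

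The groups were seeds given 5 µM gibberellin for 9 h, seeds given 5 µM gibberellin for 6 h, seeds in water for 9 h and seeds in water for 6 h, with 2 arrays each. The 3 h groups of both treatments, also of 2 arrays each, entered the model for its estimate of the spread. All seeds were in the Ler background and came from 1 stock (N3742), so anything that stock carries is shared by every group. The sources used here give neither the form of gibberellin nor further alleles of the stock. Whether arrays A and B stand for separate seed batches is not stated either. Each p-value thus measures only the array-to-array spread, which may be technical.

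Gibberellin promotes germination by binding the GID1 receptors, which then recruit the F-box protein SLY1 to mark DELLA repressors for breakdown. In dry and imbibed seeds abscisic acid acts against it and maintains the transcripts of late maturation, such as those of LEA proteins and dehydrins that protect drying cells. As germination advances, these transcripts are lost while genes of wall loosening, reserve use and the cytoskeleton become active.

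The labelled tissue was checked on seed markers. OLEO3, an oil body protein, PAP85, a storage cupin, and the LEA genes M10 and M17 were bright on all arrays. Their summed signal was 3697 and 7312 at 9 h of gibberellin, against 5980 and 11570 at 6 h of gibberellin. In water it was 8804 and 11120 at 9 h and 7784 and 14310 at 6 h. Of 2 seed coat markers, 1 or 2 lay under a signal of 16 on each of these 8 arrays. The summed signal of 5 markers of green tissue lay between 431.9 and 922.9 on them, with 1 or 2 of the 5 under a signal of 16. In whole seeds, fewer cells of a type and less RNA per cell cannot be told apart. Every array had been scaled to a trimmed mean signal of 100, so a change in the total RNA of a seed would not show. Among these 8 arrays, the A arrays at 6 h differed from the others in their highest signal, 3500 in gibberellin and 3787 in water. On the A and B arrays at 9 h and the B arrays at 6 h it lay between 7028 and 9143. The A pair therefore crosses this difference in both treatments, and the B pair does not. Array A was low in the 3 h groups too, with 3308 in gibberellin and 3760 in water. Array B of those groups reached 6511 and 8882. Every low array thus carried the letter A, so this difference is partly tied to the letter.

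Between 6 h and 9 h of gibberellin, the receptor gene GID1A, the abscisic acid-linked XERICO, the dehydrin LTI30 and the LEA gene M10 fell, and a beta-tubulin, another dehydrin and 2 plastid-encoded genes rose. Of the 8854 probe sets that name 1 gene, 19 passed the test (0.215%), 5 higher (0.0565%) and 14 lower (0.158%) at 9 h. Over all 15766 probe sets tested, 40 passed (0.254%), 9 higher and 31 lower (limma, adjusted p under 0.05). The same 3 h in water gave 0 passing probe sets by limma, with 698 at an unadjusted p under 0.05 (4.43%), against 1869 (11.9%) in gibberellin. The difference between the steps, tested directly, also gave 0 passing probe sets by limma, with 1007 at an unadjusted p under 0.05 (6.39%). The water steps printed below are therefore measurements beside the gibberellin values, and some genes are given without one. No gene is shown to change in gibberellin only. Without the letter as a block, 1 of the 40 calls was left. Leaving out a water array or a 3 h array leaves each gibberellin step as it was and changes only the estimate of the spread. Leave-one-array-out counts below include those fits. Without array B at 6 h of gibberellin 0 probe sets passed. Without array A at 9 h of gibberellin 27 passed, 6 of them among the 40, and without array B at 9 h 15 passed, 7 of them among the 40. Without array A at 6 h 154 passed, 27 of them among the 40.

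XERICO, a RING-type zinc finger gene linked to abscisic acid accumulation, had signals of 137.9 and 180.8 at 9 h of gibberellin, against 236.1 and 324.6 at 6 h. In water it had 1254 and 1483 at 9 h and 1156 and 1181 at 6 h. The gibberellin arrays did not overlap, and every one of them lay far under the water arrays. The log2 step of XERICO in gibberellin was -0.81 ± 0.149, a fall (SE, n = 2 arrays a group; limma, adjusted p = 0.0397), and its water step was 0.22 ± 0.149. Its signals at 3 h of gibberellin, 468.4 and 561.8, were higher still, so that each later time lay under the one before. It kept its call in 7 of 12 leave-one-array-out fits. The call was lost without array B at 6 h of gibberellin and without either array at 9 h of gibberellin.

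GID1A, a gibberellin receptor, had signals of 81.8 and 75.9 at 9 h of gibberellin, against 162.3 and 133.5 at 6 h. Its water signals were 345.2 and 298.5 at 9 h and 391.2 and 348.3 at 6 h. GID1A fell by 0.90 ± 0.162 in gibberellin (limma, adjusted p = 0.0326), and its water step was -0.20 ± 0.162. It kept its call in 8 of 12 leave-one-array-out fits. The call was lost in each fit without a 6 h or 9 h gibberellin array. GID1A was the only member called among the 7 measured genes of gibberellin perception and signalling. All 7 fitted steps were below 0, with a median of -0.35 in gibberellin and -0.03 in water, and 5 of the 7 were lower in both letter pairs. Over all 8752 genes, with 1 probe set each, the median gibberellin step was -0.01 and 2437 genes (27.8%) were lower in both pairs.

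The other receptors were dim. GID1C had 12.2 and 15.2 at 9 h of gibberellin, against 27.4 and 24.5 at 6 h, with a step of -0.92 ± 0.372 (limma, adjusted p = 0.346). GID1B lay between 8.67 and 16.7 on these 4 arrays, near the floor. SLY1, the F-box protein that marks DELLA proteins for breakdown, had 93.3 and 125 at 9 h of gibberellin and 132.7 and 134.4 at 6 h (step -0.31 ± 0.179). SPY and SEC, O-linked sugar transferases that act on DELLA proteins, had steps of -0.22 ± 0.150 and -0.35 ± 0.173. Neither passed the test. The water steps of GID1C, SLY1, SPY and SEC were -0.06, 0.02, 0.02 and -0.07.

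**Figure D1:**
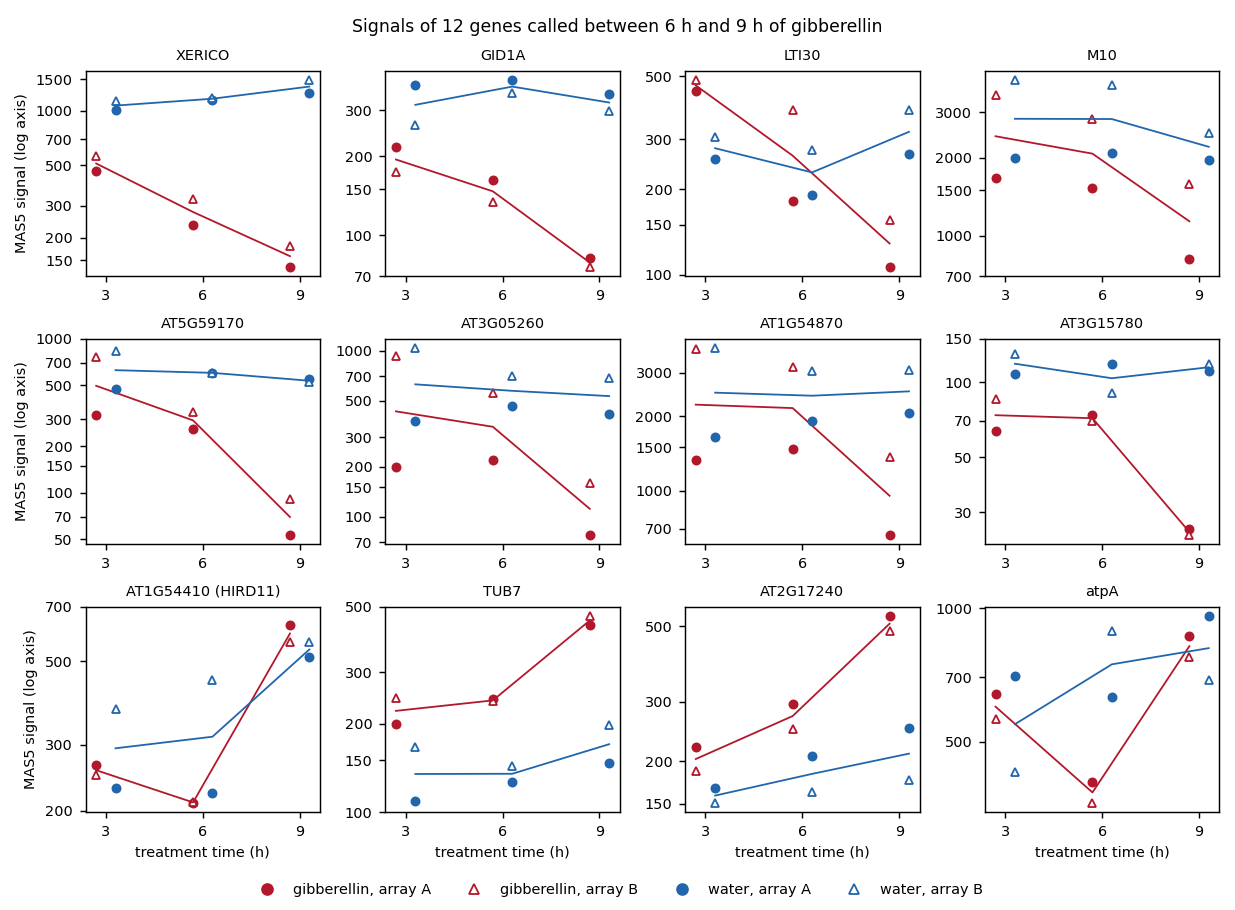
Signals of 12 of the called genes on every array at 3, 6 and 9 h (log axis, scaled per gene), with gibberellin in red drawn left of water in blue, array A filled and array B open, and lines through the geometric means. XERICO reaches 137.9 and 180.8 at 9 h of gibberellin while the water arrays at 9 h stand at 1254 and 1483, and TUB7 reaches 433.3 and 465.9 against 147 and 197.4.

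Dehydrins and other LEA proteins, which accumulate in maturing seeds and protect cells during drying, moved in opposite directions within the family. Of 12 measured members, 2 fell (LTI30 and M10), 1 rose (HIRD11) and 9 did not pass. Of the 12, 7 were lower in both letter pairs and the other 5 higher, against 27.8% lower and 27.4% higher over all 8752 genes. The same 7 had an unadjusted p under 0.05 for a lower level, and 3 of the 12 for a higher one. Over the 8854 probe sets those shares were 7.06% lower and 4.16% higher. The median step of the list was -0.43 in gibberellin and 0.24 in water.

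LTI30, a dehydrin also induced by cold, had 106.8 and 155.8 at 9 h of gibberellin, against 181.7 and 379.6 at 6 h. The water arrays gave 267.1 and 379.8 at 9 h and 190.6 and 275.9 at 6 h. The gibberellin arrays did not overlap between the times. LTI30 fell by 1.03 ± 0.195 in gibberellin (limma, adjusted p = 0.0433), whereas its water step was 0.47 ± 0.195. The difference of the steps was -1.50 ± 0.276 (limma, unadjusted p = 5.8e-05, adjusted p = 0.249). LTI30 kept its call in 3 of 12 leave-one-array-out fits.

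M10, an LEA gene, had 815 and 1592 at 9 h of gibberellin, against 1524 and 2828 at 6 h, so the groups overlap and the fall shows within each letter. M10 fell by 0.87 ± 0.171 (limma, adjusted p = 0.0498), and its water step was -0.36 ± 0.171. It kept its call in 4 of 12 leave-one-array-out fits, and it lies outside the naming rule because of the overlap. The call was lost in each fit without a 6 h or 9 h gibberellin array. Its neighbour in the list, M17, had 803.4 and 1442 at 9 h of gibberellin, against 1163 and 2416 at 6 h, a step of -0.64 ± 0.183 that did not pass. LEA (AT2G21490), a dehydrin, had a step of -0.69, LEA4-5 of -0.49, LEA18 of -0.49 and AtLEA4-1 of -0.36. The water steps of these 4 lay between 0.06 and 0.28.

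AT1G54410 (HIRD11, a small dehydrin) had 626.5 and 562.5 at 9 h of gibberellin, against 209.7 and 211.8 at 6 h. In water it had 514.6 and 563 at 9 h and 222.6 and 446.5 at 6 h. HIRD11 rose by 1.49 ± 0.236 in gibberellin (limma, adjusted p = 0.0185) and had a water step of 0.77 ± 0.236 that did not pass. In water the A pair gave 1.21 and the B pair 0.33, and in gibberellin they gave 1.58 and 1.41. HIRD11 kept its call in 10 of 12 leave-one-array-out fits. COR47, a dehydrin of cold and drought responses, had 385.4 and 241.6 at 9 h of gibberellin, against 205.1 and 129 at 6 h, a step of 0.91 ± 0.297 that did not pass. AT2G44060 (LEA26) had a step of 0.99 ± 0.278 that did not pass either.

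Seed storage genes did not pass. PAP85 had 1736 and 3606 at 9 h of gibberellin, against 2837 and 5573 at 6 h, a step of -0.67 ± 0.179 (limma, adjusted p = 0.137). Its water step was -0.05 ± 0.179. OLEO3 had 342.1 and 672.2 at 9 h of gibberellin and 456.7 and 750.8 at 6 h, a step of -0.29 ± 0.161. Among the 4 measured genes of abscisic acid and stress response, XERICO alone was called. EEL, a bZIP factor of late seed maturation, had 43 and 49.3 at 9 h of gibberellin, against 64.7 and 82.3 at 6 h (step -0.66 ± 0.215, limma, adjusted p = 0.220).

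The deepest falls were in genes to which the annotation used here gives only a locus name. AT5G59170 had 53.3 and 91.2 at 9 h of gibberellin, against 258.8 and 336.2 at 6 h, and between 520 and 602.8 on the 4 water arrays of these times. It fell by 2.08 ± 0.250 (limma, adjusted p = 0.00302), had a water step of -0.17 and kept its call in 11 of 12 leave-one-array-out fits. AT3G05260 had 77.6 and 159.5 at 9 h of gibberellin, against 217.9 and 554.4 at 6 h, a fall of 1.64 ± 0.275 (adjusted p = 0.0217).

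AT3G15780 had 25.8 and 24.3 at 9 h of gibberellin, against 73.7 and 69.9 at 6 h, a fall of 1.52 ± 0.232 (limma, adjusted p = 0.0185). AT1G54870, among the brightest of the called genes, had 662.9 and 1372 at 9 h of gibberellin, against 1471 and 3171 at 6 h, a fall of 1.18 ± 0.192 (adjusted p = 0.0197). AT1G30910 fell by 1.11 ± 0.216 and kept its call in 2 of 12 leave-one-array-out fits, those without a 3 h gibberellin array. The water steps of these 5 genes lay between -0.17 and 0.15.

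AT5G45690, AT1G27990 and AT2G21820 fell by 1.24, 1.02 and 0.99 within the letters, and their groups overlap. AT1G23050, dim throughout, fell by 2.44 ± 0.432, with 4.38 and 5.38 at 9 h of gibberellin, against 19.9 and 35.1 at 6 h. These 4 genes and M10 lie outside the naming rule and were singled out after their values were seen.

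Other values of the 14 called falls are given as a description, since all these arrays entered the fit that chose them. In 12 of the 14 the mean signal at 3 h of gibberellin was above that at 6 h, against 51.2% of the 8854. Array B was above array A in both gibberellin groups in 11 of the 14, against 33.1% of the 8854, and the block for the letter takes up that difference. Their water steps lay between -0.79 and 0.47, and 6 of the 14 were under 0. Of the 19 called genes, 15 did not overlap between the gibberellin times, against 33.6% of the 8854. An unadjusted p under 0.05 for the difference of the steps was found in 18 of the 19, against 6.47% of the 8854. That p rests in part on the arrays that chose the 19 and is given as a description.

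**Figure D2:**
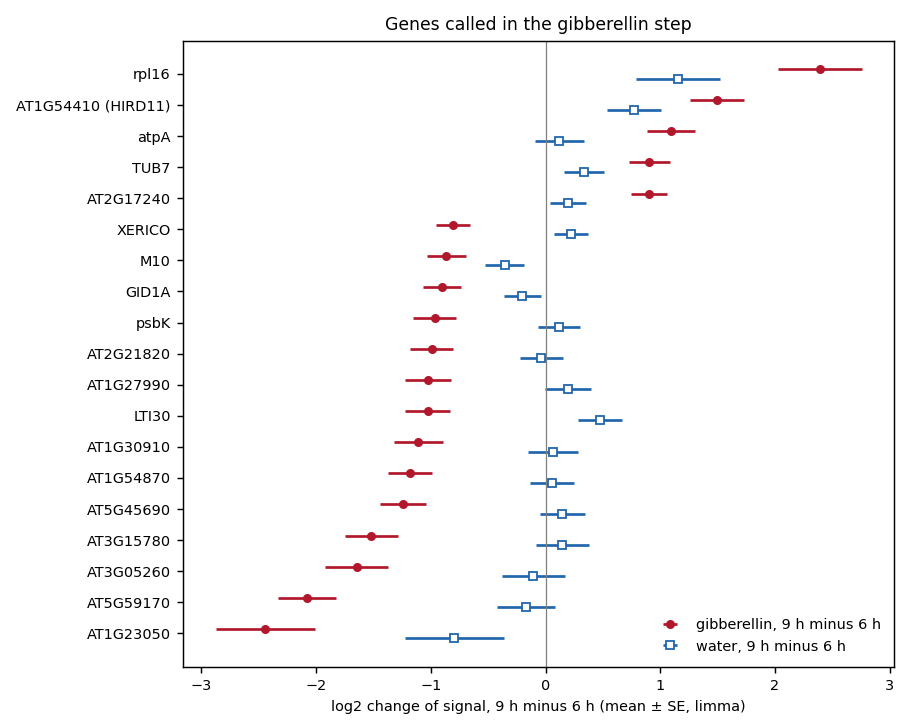
The 19 called genes, from the largest rise to the largest fall, with the gibberellin step (red, filled) drawn above the water step (blue, open) as log2 change of signal from 6 h to 9 h ± SE. Gibberellin steps run between -2.44 and 2.39 and the water steps of the same genes between -0.79 and 1.15.

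TUB7, a beta-tubulin of the microtubules, had 433.3 and 465.9 at 9 h of gibberellin, against 241.9 and 238.4 at 6 h. Its water signals were 147 and 197.4 at 9 h and 127 and 143.7 at 6 h. TUB7 rose by 0.90 ± 0.177 in gibberellin (limma, adjusted p = 0.0485), with a water step of 0.33 ± 0.177. It kept its call in 3 of 12 leave-one-array-out fits. Of the 8 measured tubulins and actins, TUB7 alone was called, and 7 of the 8 were higher in both letter pairs. Of all 8752 genes, 2402 (27.4%) were. The median step of the list was 0.69 in gibberellin and 0.21 in water.

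TUB1, another beta-tubulin, had 135.8 and 91.7 at 9 h of gibberellin, against 72.8 and 34.8 at 6 h, a step of 1.15 ± 0.386. ACT11, an actin, had 93 and 110.4 at 9 h of gibberellin, against 64.7 and 49.4 at 6 h, a step of 0.84 ± 0.405. TUA6, the brightest alpha-tubulin measured, had 2251 and 2082 at 9 h of gibberellin, against 1806 and 1593 at 6 h, a step of 0.35 ± 0.153. TUA1 alone had a step below 0 (-0.23 ± 0.280). None of these 4 passed, and their water steps were, in the same order, 0.81, 0.24, -0.02 and -0.48. AT2G17240, which has only a locus name here, had 535.3 and 482.1 at 9 h of gibberellin, against 296 and 249.8 at 6 h, and rose by 0.90 ± 0.159 (limma, adjusted p = 0.0315). Its water step was 0.20 ± 0.159.

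Wall-loosening genes gave 0 calls by limma among 10 expansins and expansin-like genes, with 2 of the 10 at an unadjusted p under 0.05, and 0 among 6 XTH genes, with 2 of the 6. Over the 8854 that share was 11.2%. EXPA8, an alpha-expansin, had 643.8 and 795.7 at 9 h of gibberellin, against 1091 and 1149 at 6 h. The arrays did not overlap, and the step of -0.65 ± 0.225 did not pass (limma, adjusted p = 0.261). Its water step was -0.47 ± 0.225, on signals between 48.3 and 97.7, and the difference of the steps was -0.17 ± 0.318. EXPA15 had 845.7 and 891.1 at 9 h of gibberellin, against 632.2 and 643.5 at 6 h, a step of 0.44 ± 0.191 beside 0.11 in water. Bright members of this family thus had gibberellin steps of opposite sign.

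XTH19 and XTH16 cut and rejoin xyloglucan chains of the wall. XTH19 had 296.8 and 453 at 9 h of gibberellin, against 228.7 and 148.8 at 6 h, a step of 0.99 ± 0.302 with a water step of -0.36. XTH16 had 256.9 and 283.1 at 9 h of gibberellin, against 210.5 and 116 at 6 h, a step of 0.79 ± 0.242 with a water step of 0.36. Neither passed.

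Genes of protein breakdown gave 0 calls by limma, with 5 of 12 serine carboxypeptidase-like genes and 4 of 10 endopeptidases at an unadjusted p under 0.05. Over the 8854 that share was 11.2%. Of the carboxypeptidase-like genes, 8 were higher in both letter pairs and 1 lower, against 27.4% higher and 27.8% lower over all 8752 genes. Their median step was 0.34 in gibberellin and -0.11 in water. The bright scpl35 had 2186 and 2676 at 9 h of gibberellin, against 1518 and 1782 at 6 h, a step of 0.56 ± 0.148 beside 0.38 ± 0.148 in water. The similarly bright scpl29 had a step of 0.37 ± 0.161. SCPL49 had a step of -0.57 in gibberellin and -0.63 in water. The largest steps of the list were 1.45 ± 0.645 in scpl48 and 1.15 ± 0.462 in scpl44. Neither passed, and their water steps were 0.04 and -0.10. Among the endopeptidases, BETA-VPE, a vacuolar processing enzyme of seed storage proteins, had 1131 and 1534 at 9 h of gibberellin, against 1538 and 2014 at 6 h, a step of -0.42 ± 0.159. APA1, an aspartic proteinase, had a step of -0.07 ± 0.170.

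ICL, isocitrate lyase of the glyoxylate cycle, was low on the A arrays at 6 h. Whether the array difference in highest signal lowers its values was not tested. Its signals were 6028 and 7427 at 9 h of gibberellin, against 1183 and 6693 at 6 h. In water they were 6165 and 5830 at 9 h and 1834 and 4171 at 6 h. The low values are those of the A arrays with the low highest signal, and the steps of 1.25 ± 0.423 and 1.12 ± 0.423 did not pass. The 233 probe sets with a mean signal of at least 1000 had a median A-pair step of 0.15 in gibberellin and 0.12 in water. Their B-pair medians were 0.04 and -0.002. With this array difference as a second block beside the letter, 58 probe sets passed in gibberellin, 24 of the 40 among them, and 9 of the 19 named genes kept their calls. Those of GID1A, XERICO, LTI30, TUB7, AT2G17240, atpA, psbK, AT1G27990, AT2G21820 and AT1G30910 were lost, with their direction kept.

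**Figure D3:**
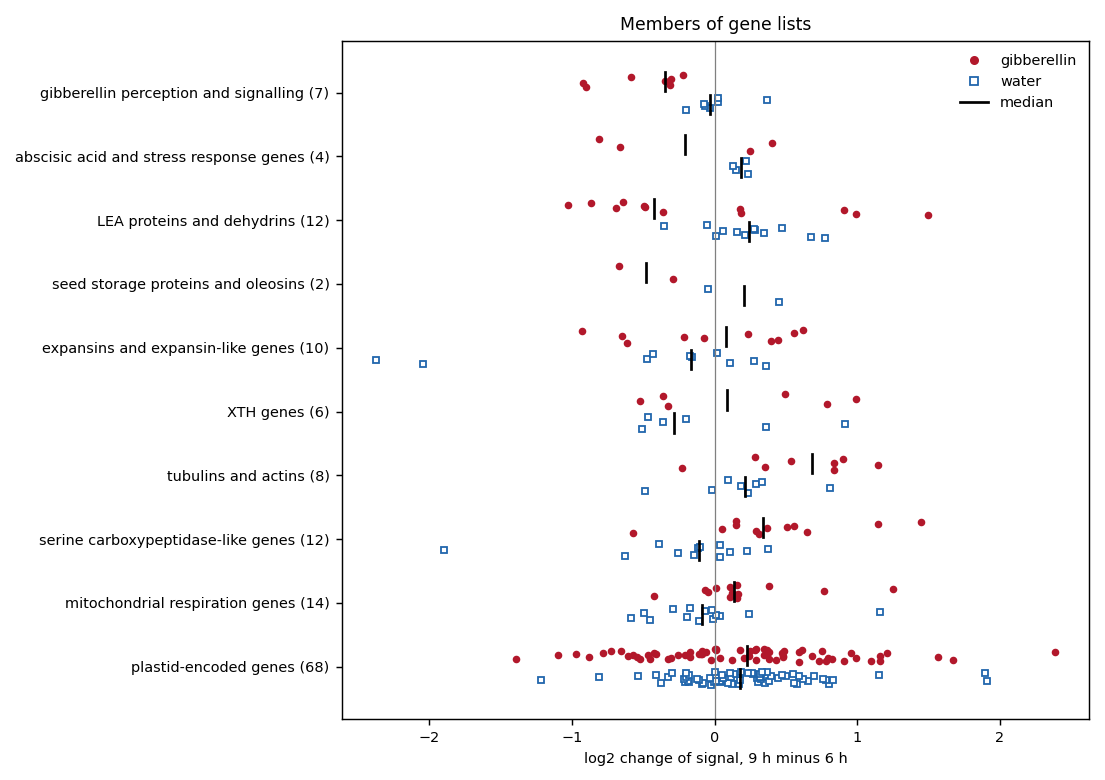
Steps of the measured members of 10 gene lists as log2 change of signal from 6 h to 9 h, gibberellin in red above water in blue, with list sizes in brackets and a black bar at each median. The LEA list splits into 7 steps below 0 and 5 above it in gibberellin, and 7 of 8 tubulins and actins lie above 0.

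Plastid-encoded genes moved in both directions. Of 68 measured, 2 rose (rpl16 and atpA), 1 fell (psbK) and 65 did not pass. In gibberellin an unadjusted p under 0.05 was found for a higher level in 19 of the 68 (27.9%) and for a lower one in 5 (7.35%). Over the 8854 those shares were 4.16% higher and 7.06% lower. In water the counts among the 68 were 10 and 2, beside 2.16% higher and 2.24% lower over the 8854. The median step was 0.23 in gibberellin and 0.18 in water, and that of the difference was 0.07. By letter, the median was 0.16 (A) and 0.25 (B) in gibberellin and 0.32 (A) and -0.02 (B) in water.

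The gene rpl16, for a protein of the large subunit of the plastid ribosome, had 854.5 and 626.3 at 9 h of gibberellin, against 167.6 and 116.2 at 6 h. The water arrays gave 868.4 and 732.9 at 9 h and 200.2 and 642.1 at 6 h. The low values were thus both arrays at 6 h of gibberellin and array A at 6 h of water. At 3 h of gibberellin rpl16 had 460.8 and 545.5, above 6 h as well. It rose by 2.39 ± 0.366 in gibberellin (limma, adjusted p = 0.0185), with a water step of 1.15 ± 0.366, and kept its call in 10 of 12 leave-one-array-out fits.

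The gene atpA, for the alpha subunit of the plastid ATP synthase, had 866.9 and 778.6 at 9 h of gibberellin, against 406.2 and 364.8 at 6 h. In water it had 960.9 and 688.4 at 9 h and 630.5 and 887 at 6 h. At 3 h of gibberellin atpA had 639.6 and 563.5, so the 6 h arrays stand below both other times. It rose by 1.09 ± 0.211 in gibberellin (limma, adjusted p = 0.0460), with a water step of 0.12 ± 0.211. It held that call in 7 of 12 leave-one-array-out fits and lost it in each fit without a 6 h or 9 h gibberellin array. Other subunits of the same complex did not pass: atpH had a step of 1.16 ± 0.325, atpE of 0.91 ± 0.209 and atpB of 0.73 ± 0.245. The water step of atpE was 0.80 ± 0.209 and did not pass either.

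The gene psbK, for a small subunit of photosystem II, had 311.1 and 236 at 9 h of gibberellin, against 586.1 and 479 at 6 h. Its water signals were 491.3 and 246.5 at 9 h and 371.9 and 276.5 at 6 h. It fell by 0.97 ± 0.184 (limma, adjusted p = 0.0433), with a water step of 0.12 ± 0.184, and kept its call in 5 of 12 leave-one-array-out fits. At 3 h of gibberellin it had 331.4 and 174.8, so the 6 h arrays stand above both other times. The genes rpoC1, for a subunit of the plastid RNA polymerase, and psbI, of photosystem II, had steps of -0.72 ± 0.211 and -0.41 ± 0.147 that did not pass.

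**Figure D4:**
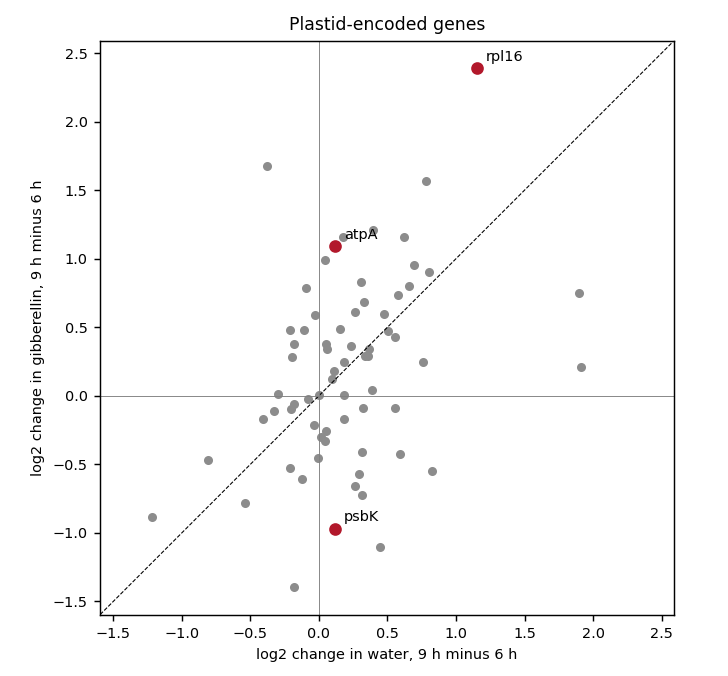
The 68 plastid-encoded genes, each a point at its gibberellin step (vertical axis) and its water step (horizontal axis), both as log2 change of signal from 6 h to 9 h, with the dashed line where they are equal. The called genes are red, rpl16 at 2.39 and 1.15, atpA at 1.09 and 0.12 and psbK at -0.97 and 0.12.

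Other lists gave 0 calls by limma and are given as values. Over all 8752 genes, 27.4% were higher and 27.8% lower in both letter pairs in gibberellin, shares that stand beside the counts of these lists. Among reserve and transport genes, the 11 SWEET and tonoplast sugar transporters had a median step of 0.04 in gibberellin and -0.11 in water. SWEET1, a sugar exporter, had a step of 0.04 ± 0.176 and the tonoplast carrier TMT2 of -0.30 ± 0.148. Of 10 genes of amino acid breakdown, 7 were lower in both letter pairs and 2 higher, with a median of -0.09. ALDH6B2, a dehydrogenase of valine breakdown, had 674.1 and 684.1 at 9 h of gibberellin, against 770.2 and 767.4 at 6 h (step -0.18 ± 0.139). Of 6 genes of lipid mobilisation and the glyoxylate cycle, with a median of -0.07, AIM1 of fatty acid beta-oxidation had a step of -0.30 ± 0.166. Its signals were 372.3 and 369.2 at 9 h of gibberellin and 458.1 and 453.5 at 6 h, with no overlap.

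Among wall genes, 4 of 5 GH9 endoglucanases were higher in both letter pairs, against 27.4% of all 8752 genes. The median of these endoglucanases was 0.80 in gibberellin and 0.12 in water. GH9B7 had 102.6 and 91.3 at 9 h of gibberellin, against 68.5 and 69.3 at 6 h, a step of 0.49 ± 0.241. The 3 pectin-modifying enzymes were dim, with a median of 0.82 in gibberellin and 0.89 in water. The 20 cellulose synthase-like and xylan acetylation genes had a median of -0.07, with 6 higher and 6 lower in both pairs. TBL39 of this list had 98.6 and 57.8 at 9 h of gibberellin, against 47.4 and 22.8 at 6 h, a step of 1.20 ± 0.324 that did not pass. TBL37 had a step of -0.19 and COB, which orients cellulose deposition, of -0.03.

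Among genes of growth and gene expression, the 24 of translation, RNA polymerase and ribosome biogenesis had a median of -0.003, with 3 higher and 8 lower in both pairs. PRH75, an RNA helicase, had a step of -0.22 ± 0.174 and AT5G14520 (PES, of ribosome biogenesis) of 0.09 ± 0.143. The 16 cell cycle and DNA replication genes had a median of -0.01 (SIM, an inhibitor of mitosis, -0.32; TSO1 0.23). The 8 histones had a median of 0.02, with HTB4 at -0.24 and HON4 at -0.42. The 10 auxin genes had a median of -0.20 in gibberellin and -0.37 in water, with IAGLU, an auxin glucosyltransferase, at -0.25 and WES1 at -0.38.

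The 27 nuclear genes of photosynthesis had a median of 0.003 in gibberellin and 0.17 in water. AT4G01150 (CURT1A, which curves thylakoid membranes) had 1140 and 1190 at 9 h of gibberellin, against 1082 and 996.6 at 6 h (step 0.17 ± 0.146), and PSB27 a step of 0.05. The 8 genes of tetrapyrrole synthesis had a median of 0.23, with GSA1 at 0.25 and CHLM at 0.11. The 4 ATP-citrate lyase subunits had a median of 0.15, with ACLA-3 at 0.10 and ACLA-1 at -0.15. Of 18 heat shock proteins and co-chaperones (median 0.03), 8 were higher and 6 lower in both pairs, and BOB1 had a step of 0.12.

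Among families of secondary metabolism, the 21 beta-glucosidases and glucosinolate genes had a median of 0.16, with BGLU44 at 0.15 ± 0.158 and BGLU25 at -0.42 ± 0.162. The 36 UDP-glycosyltransferases had a median of 0.05. UGT76E12 among them had 168.4 and 82.2 at 9 h of gibberellin, against 205.2 and 260.7 at 6 h, a step of -0.98 ± 0.242 that did not pass. The 10 cytochrome P450 genes had a median of -0.02 (CYP71B6 -0.18, CYP71B5 -0.13) and the 7 glutathione S-transferases of 0.25 (GSTU27 0.34, GSTL3 -0.25). Of the 5 NPF transporters (median 0.16), AT1G68570 (NPF3.1) had 69 and 94 at 9 h of gibberellin, against 173.6 and 146.7 at 6 h. Its step of -0.99 ± 0.245 did not pass (limma, adjusted p = 0.112). AT3G25260 (NPF4.1) had a step of 0.40 ± 0.284.

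Some steps were large in both letter pairs without passing. At least 2-fold in both pairs, with both arrays of the brighter group at 50 or more, were 13 of the 8854 probe sets higher (0.147%) and 14 lower (0.158%) in gibberellin. In water 0 were higher and 0 lower. Without the demand on brightness, 106 were higher and 69 lower in gibberellin, and 80 higher and 59 lower in water. Of the bright ones in gibberellin, 3 of the 13 and 6 of the 14 are among the calls above. The others were singled out after their values were seen and are given as values.

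PYK10, a beta-glucosidase of ER bodies, had 1340 and 1002 at 9 h of gibberellin, against 548.9 and 311.9 at 6 h, a step of 1.49 ± 0.427 (limma, adjusted p = 0.162). JAL34, a jacalin-related lectin, had 218.1 and 82.3 at 9 h of gibberellin, against 68.2 and 28.7 at 6 h, a step of 1.60 ± 0.380 (adjusted p = 0.0974). DELTA-VPE, a vacuolar processing enzyme, had 215 and 203.7 at 9 h of gibberellin, against 89 and 44.3 at 6 h, a step of 1.74 ± 0.568. The water steps of these 3 were 0.39, 0.98 and 0.68, on signals of at most 124.7.

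AT3G56350 had 255.6 and 650.8 at 9 h of gibberellin, against 579.4 and 1313 at 6 h, a step of -1.10 ± 0.275. PDF1.4, a plant defensin gene, had 27.5 and 32.5 at 9 h of gibberellin, against 55.6 and 86.4 at 6 h, a step of -1.21 ± 0.356. The water steps of AT3G56350 and PDF1.4 were 0.05 and -0.69.

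The letter pairs shared more of the step in gibberellin than in water. Across the 8854 probe sets, which are not independent replicates, 55.5% had the same sign in both pairs in gibberellin and 50.7% in water. Pearson's correlation of pair A with pair B across probe sets was 0.0975 in gibberellin and -0.0203 in water. Among the 3280 with a mean signal of at least 100 it was 0.331 in gibberellin and 0.0647 in water. The points of a pair share their 2 arrays, and dim signals spread widely on the log2 scale. The median standard error of a step was 0.261, and that of the difference of the steps 0.369.

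**Figure D5:**
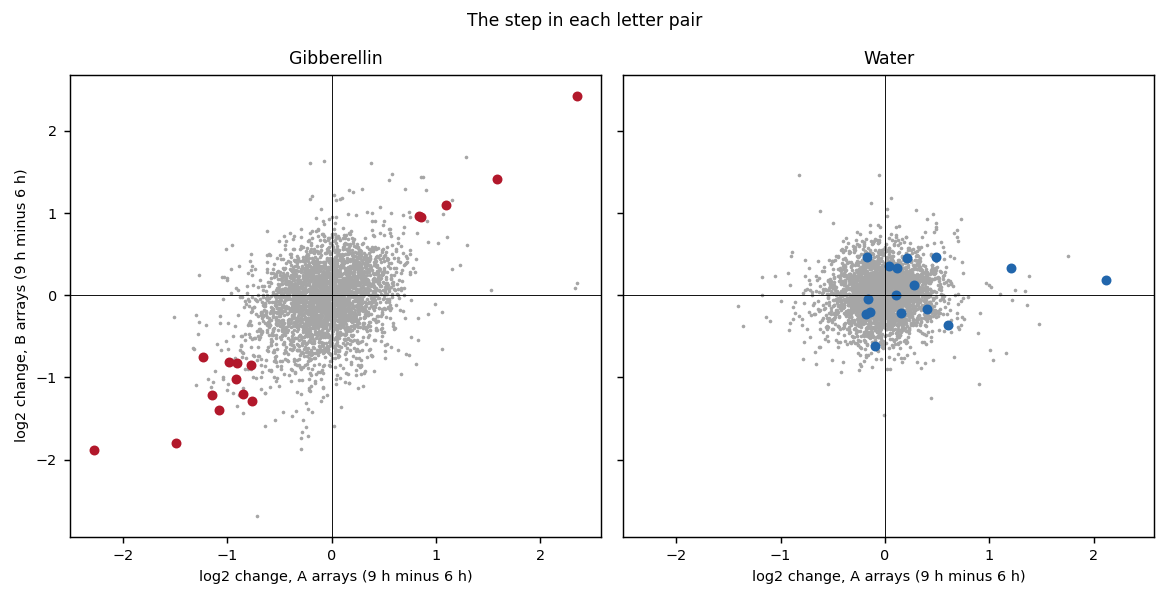
The 9 h minus 6 h log2 change on the B arrays (vertical axis) against that on the A arrays (horizontal axis), in gibberellin (left) and in water (right), for the 3280 single-gene probe sets with a mean signal of at least 100. Large coloured points are the called genes among them, which lie far out along the diagonal in gibberellin, where they were chosen; the correlations are 0.331 in gibberellin and 0.0647 in water.

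For the difference of the steps, where nothing passed, the genes with the smallest unadjusted p are given as values. AT3G53040 had 238.7 and 169.1 at 9 h of gibberellin, against 311.3 and 470.1 at 6 h. The water arrays gave 688.5 and 941.1 at 9 h and 434.3 and 556.4 at 6 h. Its step was -0.93 in gibberellin and 0.71 in water, a difference of -1.64 ± 0.297 (limma, unadjusted p = 5e-05, adjusted p = 0.249). The next were LTI30 (-1.50), AT5G59170 (-1.91), AT3G15780 (-1.67) and AT1G16850 (-1.93). On the other side were AT1G60610 (1.57), AT5G07860 (1.74), AT3G17780 (1.14), AT5G46920 (1.04) and AT1G60080 (0.93), with adjusted p between 0.395 and 0.549.

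In water the genes with the smallest unadjusted p for a higher level were atpE, AT3G53040, AT3G15280, AT1G54410 and AT2G02510, with water steps between 0.67 and 0.80. Those for a lower level were AT2G06040 (-0.81), AT5G50310 (-0.67), AT1G36310 (-0.58), AT4G32020 (-0.68) and AT1G71900 (-1.28). None passed (limma, adjusted p = 0.9995 for each).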

How the data were processed

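Total RNA of whole seeds was labelled with biotin and hybridised to 1-colour arrays with 22810 probe sets. The authors deposited linear intensity values made with MAS5, per the submitters' processing notes, which state no version. They were taken to log2 as deposited. The 2 arrays of a group limit the precision.

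Control probe sets (64) were left out, and 15766 of 22746 (69.3%) probe sets had at least 2 of 12 arrays above the 40th percentile of log2 signals. The platform annotation names 1 gene for 13513 probe sets, several for 503 and none for 8730. Of the 13513, 13436 matched RefSeq (TAIR10.1) and 77 did not. Probe sets with several genes name none, and no coordinates, sequences or promoters were analysed here.

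limma 3.58.1 in R 4.3.3 fitted 6 group means and the array letter as a block to all 12 arrays, with an intensity trend. Tests are two-sided, adjusted by Benjamini-Hochberg over the 15766; an adjusted p under 0.05 is a call. The block follows the letter pairing. Deviations from the group means of same-lettered arrays correlated between 0.077 and 0.275 over the 15 pairs of groups, above 0.1 in 14. The labels do not say what the letters mark. The fit was tested on simulated data.

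Named are the 10 largest called rises and falls whose groups do not overlap and whose brighter group reaches 50 on both arrays (5 and 5, filled by unadjusted p, for water and the difference), up to 4 called members of each of 30 gene lists, or the 2 brightest as values. Genes with several probe sets are given by the brightest. The comparison and the lists were chosen with earlier results of these data known; the lists were regrouped after the annotation was seen, and a misnamed cyclophilin was taken out of the P450 list after its value was seen. Of the 30 lists, 5 had a called member. The alternatives changed the block, the arrays, the scaling, the log offset, the filter and the variance model.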

Additional observations from a re-analysis of the deposited data

How the results depend on the processing

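With 2 arrays a group, the counts of calls depend on the fit, and the cause of each shift was not tested. For the gibberellin step (40 probe sets) they were 1 without the letter block, 17 with the signal ceiling as the block, 58 with the letter and the ceiling as blocks, 24 with median centring, 71 with log2(signal + 16), 0 without an intensity trend and 12 over single-gene probe sets alone. They were 100 with the arrays of 6 h and 9 h alone, 272 with the 4 arrays of the step alone (16 in water) and 599 with the 8 arrays of high ceiling alone (74 in water and 228 for the difference of the steps), a fit in which 6 h of gibberellin has only array B. Of the 40, 39 were shared in the fits of 100 and 599, 37 in that of 272, 38 in that of 71, 24 in those of 58 and 24, and 10 in that of 17. With 1 array left out the gibberellin step gave between 0 (without array B at 6 h) and 154 calls (without array A at 6 h). It gave 70 and 72 without array A or B at 3 h of gibberellin, and 27 and 15 without array A or B at 9 h, with 6 and 7 of the 40 among them. The water step gave between 0 and 13 (without array A at 6 h), with 4 without array A at 9 h. The difference gave between 0 and 4 (without array A at 6 h or at 9 h of gibberellin), with 3 without array A at 6 h of water and 1 without array B at 9 h of gibberellin. With 1 array left out, the lone array of its group is assumed to vary like the others. All 19 called genes kept their direction in every fit that measured them, and the stricter filter left 18 measured. Dropping the letter block, or changing the filter or the variance model, leaves each step as it was. So does fitting the arrays of 6 h and 9 h alone or the 4 arrays of the step alone. Leaving out a water array or a 3 h array does so too. The direction could not change in those fits. None of the 19 was called without the block, without the trend or without array B at 6 h of gibberellin, 2 were without array A at 9 h and 4 without array B. Promoter motifs, planned as a description, were not run because no promoter sequences were used here.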

Other observations

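Small groups outside the main account gave values but no calls. Of 14 measured genes of mitochondrial respiration, 8 were higher in both letter pairs in gibberellin and 1 lower. Over all 8752 genes those shares were 27.4% higher and 27.8% lower. The median step of the 14 was 0.13 in gibberellin and -0.09 in water. SDH2-1, an iron-sulfur subunit of succinate dehydrogenase, had 548 and 739.7 at 9 h of gibberellin, against 523.5 and 455.1 at 6 h, a step of 0.38 ± 0.164 beside -0.29 ± 0.164 in water. The bright CYTC-1, a cytochrome c, had a step of 0.16 ± 0.158 and FDH, formate dehydrogenase, of -0.43 ± 0.188. IDH-V, a subunit of mitochondrial isocitrate dehydrogenase, had a step of 0.15 in gibberellin and -0.59 in water. Cpn60beta2, a plastid chaperonin, had 1598 and 1549 at 9 h of gibberellin, against 1138 and 1047 at 6 h, a step of 0.53 ± 0.152 (limma, adjusted p = 0.166). HIS1-3, a linker histone induced by drought, had 45 and 63.2 at 9 h of gibberellin, against 65.3 and 111.3 at 6 h (step -0.68 ± 0.183), while the water arrays of these times lay between 281.3 and 420.4. AOP3, an oxygenase of glucosinolate synthesis, had 60.3 and 89.5 at 9 h of gibberellin, against 129.5 and 134.9 at 6 h, a step of -0.85 ± 0.189 (adjusted p = 0.0847).

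Of the 40 called probe sets, 19 carry no gene name in the annotation used here and 2 name several genes. The largest fall of all was in an unnamed one, with 3.44 and 2.10 at 9 h of gibberellin, against 39.5 and 50.6 at 6 h, and between 33.7 and 68.1 on the water arrays of these times (step -4.06 ± 0.430). The 2 with several genes rose by 1.56 and 1.58 in gibberellin. Their water steps were 1.43 and 1.49.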
